A study of Mus musculus with 4 samples.

Results

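The targets of the miR-101 family were examined in chimeric Ago2 eCLIP-seq of mouse plantaris muscle. The family was taken as the 3 names mmu-miR-101a-3p, mmu-miR-101b-3p and mmu-miR-101c, and its members were all peaks in which a chimeric read carried 1 of these names. There were 546 such peaks among the 20754 peaks of the control-injected muscle and 667 among the 21872 peaks of the mimic-injected muscle. A peak can hold several miRNAs, and a peak with 1 named miRNA is called a miRNA site here. The family accounted for 590 of 93468 miRNA sites in control muscle (0.631%, 95% exact binomial interval 0.581 to 0.684) and for 720 of 100897 in mimic muscle (0.714%, 0.663 to 0.767).

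In this assay the Ago2 protein, which carries miRNAs to their targets, was crosslinked to RNA and immunoprecipitated, and each miRNA was ligated to the RNA fragment beneath it. Both muscles came from male C57BL/6J mice of 5 months that had undergone 10 days of mechanical overload (MOV) by synergist ablation, a surgery in which part of the gastrocnemius and soleus, muscles that share the work of the plantaris, was cut away. According to the methods, the left plantaris received a control lentivirus and the right one a lentivirus that made a miR-1 mimic, each under a CMV promoter with a TurboGFP reporter, and whether the libraries came from the same mouse was not stated. There was 1 library for each of the MOV control and MOV mimic groups, and the input library of each was not analysed here. No test between the conditions was therefore possible, and every difference below describes these libraries.

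miRNAs pair with their targets mainly through the seed, bases 2 to 8 from the 5′ end, and usually lower the stability or the translation of mRNAs that hold the complementary letters in their 3′ untranslated region (3′UTR). miR-101 is a conserved family that is known for repressing Ezh2, the histone methyltransferase of the Polycomb repressive complex 2, and the AP-1 transcription factor Fos. Its members differ by few bases, so their mature sequences are shown first, as RefSeq gives them for GRCm38.p6, with the seed in capitals. The last 2 lines are the miRNAs outside the family whose reads were most like those of the family, described further on.
miR-101a-3p, chr4:101346957-101346977, minus strand: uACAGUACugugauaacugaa
miR-101b-3p, chr19:29135338-29135356, plus strand: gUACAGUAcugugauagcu
miR-101c, chr9:3038680-3038698, minus strand: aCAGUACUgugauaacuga
miR-144-3p, chr11:78073047-78073066, plus strand: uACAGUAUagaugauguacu
miR-139-5p, chr7:101475382-101475403, plus strand: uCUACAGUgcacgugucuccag
All 19 bases of miR-101c are contained in the 21 bases of miR-101a-3p, starting at base 2. miR-101b-3p shared an unbroken run of 15 bases with miR-101a-3p and of 14 bases with miR-101c. Because the annotated ends are shifted against each other, the family members have 3 different 7-base seeds that cover nearly the same letters.

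The name miR-101a-3p held no site in either library, although miR-101c, whose letters it contains, was abundant. A count of 0, taken as at most 3 counts, allows a share of up to 0.00321% of the sites in control muscle and 0.00297% in mimic muscle, and the upper ends of the exact 95% intervals are 0.00395% and 0.00366%. miR-101c held 506 sites with 746 chimeric reads in control muscle (95% Poisson interval 693 to 802) and 614 sites with 883 reads in mimic muscle (826 to 943). By reads it stood at rank 46 of 560 miRNAs in control muscle and at rank 45 in mimic muscle. miR-101b-3p held 84 sites with 74.5 reads (58.1 to 92.9) and 106 sites with 100.5 reads (81.4 to 121.6). Thus miR-101c carried 90.9% of the family reads in control muscle (88.7 to 92.7) and 89.8% in mimic muscle (87.8 to 91.6). How a name was chosen for a read that fits several mature miRNAs was not stated. Of the 4 pairs of mouse mature miRNAs in the reference in which 1 sequence contains the other and either was named here, only the shorter name occurred in all 4. Reads of miR-101a-3p and miR-101c therefore cannot be told apart by name, and the family was summed per peak. The other strand of the miR-101a hairpin, miR-101a-5p, was named at 11 sites in each library.

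Most family peaks held 1 of the names. In the control 462 peaks held miR-101c alone among the family, 40 held miR-101b-3p alone and 44 held both. In the mimic the numbers were 561, 53 and 53. In the peaks with both names miR-101c had more reads in 35 of 44 peaks of the control and in 43 of 53 of the mimic.

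The values were estimated chimeric reads per miRNA and peak and were mostly fractions. The median family peak held 0.853 reads in control muscle and 0.844 in mimic muscle, and 326 and 414 peaks held under 1 read. A small number of strong peaks carried much of the signal. The 45 control peaks of at least 3 reads held 49.96% of the family reads, and the 54 mimic peaks of that depth held 50.9%. At least 10 reads were seen at 10 control peaks and 14 mimic peaks. Little of the signal lay on mitochondrial RNA, with 1.41% and 1.82% of the family reads, compared with 13.7% and 13.4% of the reads of all miRNAs. The ribosomal RNA gene Rn18s-rs5 held 5.598% of the family reads in either library, against 6.71% and 6.41% of all reads.

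Outside ribosomal RNA, Malat1, a nuclear long noncoding RNA, and Fos had the most family reads in both libraries. Rn18s-rs5 had 45.9 reads (33.7 to 61.4) in 10 peaks and 55.1 reads (41.4 to 71.6) in 12 peaks, more than Fos in mimic muscle. Malat1 had 62.9 family reads in control muscle (48.4 to 80.6) and 75.7 in mimic muscle (59.9 to 95.1). Its main peak, chr19:5802340-5802470 in control muscle, held 58.8 reads there and 72.9 in mimic muscle. Fos had 55.8 reads (42.3 to 72.7) and 44.5 reads (32.8 to 60.2), almost all in the peak chr12:85476949-85477069. The intervals of the libraries overlapped for both genes. Itgb1, the integrin β1 subunit that links the cytoskeleton to the extracellular matrix, followed with 23.7 reads (15.4 to 35.7) in control muscle and 31.9 (21.9 to 45.2) in mimic muscle, at chr8:128732949-128733058.

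**Figure D1:**
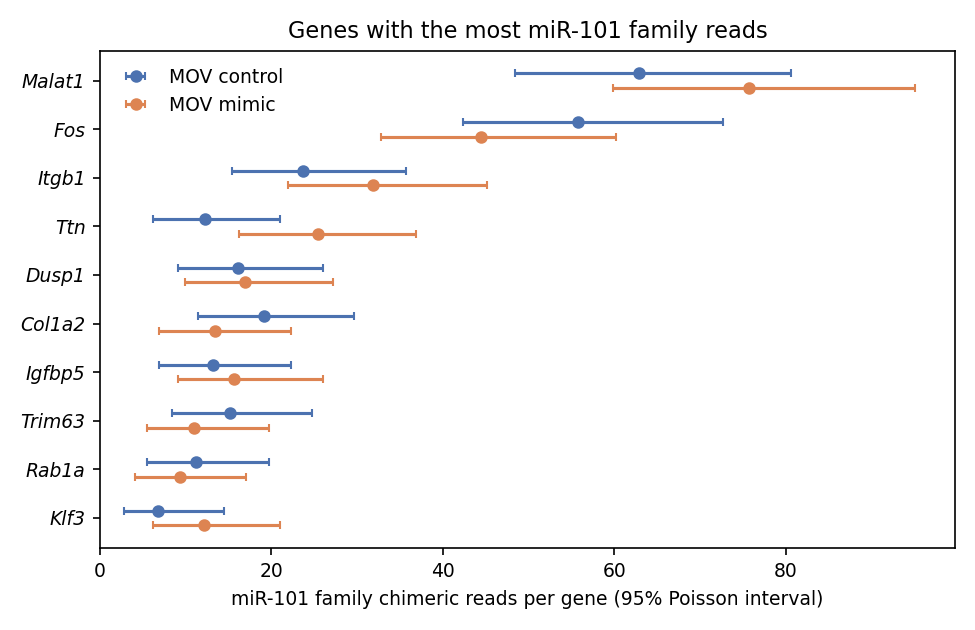
miR-101 family chimeric reads per gene (x axis, linear) for the 10 genes with the most family reads over both libraries outside mitochondrial RNA and Rn18s-rs5, in the MOV control (blue) and MOV mimic (orange). Points are single libraries and bars are 95% Poisson intervals of counting error. Malat1 (62.9 and 75.7 reads) and Fos (55.8 and 44.5 reads) stand above the other genes shown, and the intervals of the libraries overlap for every gene.

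The next genes had between 6.79 and 25.4 reads per library. Dusp1, a phosphatase that inactivates MAP kinases, had 16.1 reads in control muscle and 16.9 in mimic muscle, with its main peak at chr17:26505750-26505862. Col1a2, a chain of type I collagen, had 19.1 and 13.4 reads, mainly at chr6:4538628-4538726. Igfbp5, which binds insulin-like growth factors, had 13.2 and 15.7 reads in a single peak in each library, at chr1:72858265-72858341 in mimic muscle. Trim63, the muscle ubiquitin ligase MuRF1, had 15.2 and 10.9 reads. Rab1a, a GTPase of transport from the endoplasmic reticulum to the Golgi, had 11.2 and 9.38 reads, and the transcriptional repressor Klf3 had 6.79 and 12.1.

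Ttn, the giant spring protein of the sarcomere, differed from these genes in how its reads were spread. Its 12.2 reads in control muscle lay in 24 peaks and its 25.4 reads in mimic muscle in 30 peaks, and no peak exceeded 2.58 and 3.66 reads. The ratio of mimic to control reads was 2.08 (1.01 to 4.55), an interval that includes the ratio of all chimeric reads, 1.12. The family held 0.0697% of all chimeric reads on Ttn in control muscle and 0.108% in mimic muscle.

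In many strong peaks the family was the main occupant. It accounted for 84.1% of all chimeric reads in the Malat1 peak of the control and 81.0% in mimic muscle, and for 84.6% and 91.0% in the Fos peak. The shares were 68.4% and 56.0% for Itgb1, 69.4% and 72.3% for Igfbp5, and 73.1% and 67.8% for Rab1a. For Trim63 the family led with 73.5% in control muscle, whereas in mimic muscle it held 37.9% and miR-486b-5p had more reads. Dusp1 was a crowded site, where miR-101c led with a family share of 14.0% and 13.6% among 28 and 35 miRNAs. In the Col1a2 peak the family was a minor part, with 10.9% and 8.29%, and miR-199 members led.

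**Figure D2:**
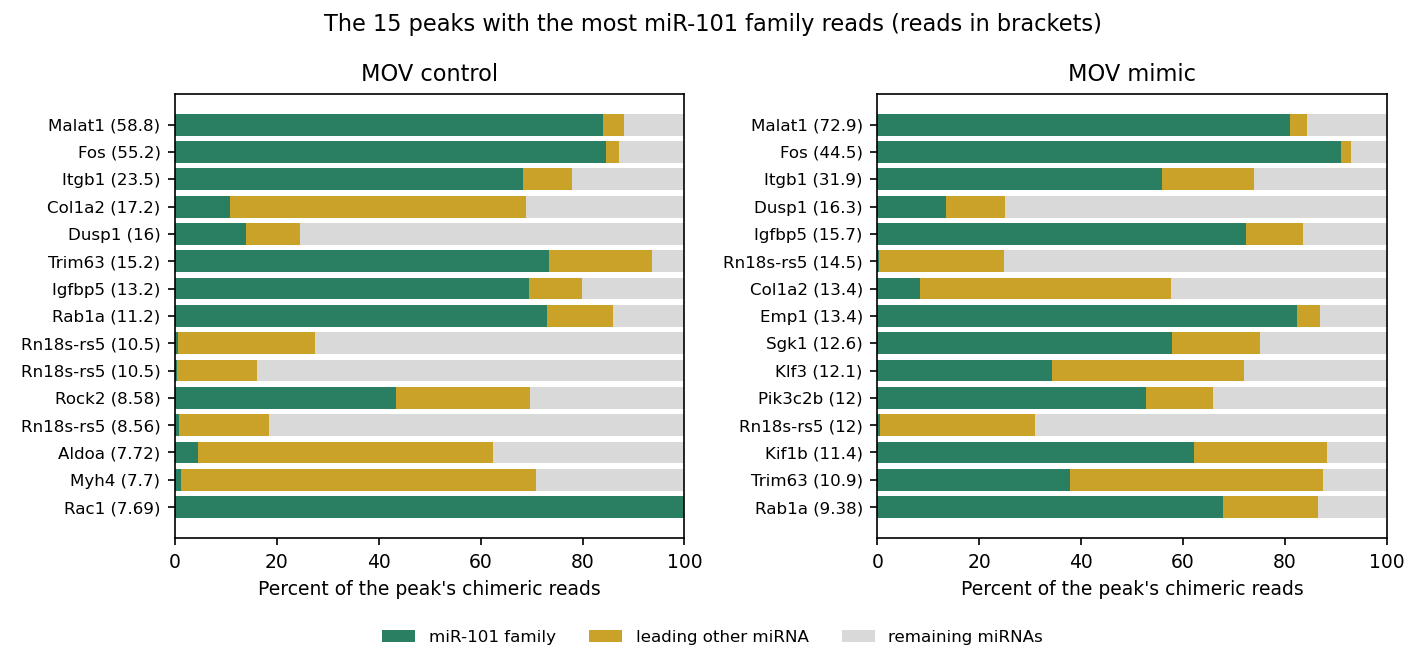
The 15 peaks with the most miR-101 family reads in the MOV control (left) and MOV mimic (right), labelled with gene and family reads. Bars give the percent of the peak's chimeric reads held by the family (green), by the leading other miRNA (yellow) and by the remaining miRNAs (grey). The family holds most of the Malat1 and Fos peaks and under 1% of the Rn18s-rs5 peaks.

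Over all peaks of at least 3 family reads, a family member was the leading miRNA in 27 of 45 control peaks (60%) and in 31 of 54 mimic peaks (57.4%). For the sites of all other miRNAs at the same depth the shares were 55.8% and 55.4%. The centre lay within 2000 nt of the 3′ end of the gene in 24 of 40 family peaks of this depth in control muscle (60%) and in 30 of 48 in mimic muscle (62.5%), compared with 35.6% and 34.8% of the sites of other miRNAs. Among the 48 miRNAs with enough sites for this share, 1 stood above miR-101c in control muscle and 0 in mimic muscle. For the share of peaks led, 14 of 53 miRNAs stood above miR-101c in control muscle and 15 of 55 in mimic muscle. These shares were not tested.

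The 3′UTRs of the target genes were then searched for the letters that pair with each seed, on the transcript strand of GENCODE vM1, with the transcript of the longest 3′UTR for each gene. The letters were GTACTGT for miR-101a-3p, TACTGTA for miR-101b-3p and AGTACTG for miR-101c, and neighbouring motifs overlap by 6 bases. The rule that chose the peaks used no sequence of the target. GTACTGT occurred in the 3′UTR of 15 of 25 genes with a family peak of at least 3 reads in both libraries (60%, 38.7 to 78.9). Of 2837 genes with a peak of that depth for another miRNA and no family peak, 349 held it (12.3%, 11.1 to 13.6). The 3′UTRs of the family targets were not longer, with a median of 971 nt against 1480 nt. TACTGTA occurred in 52.0% of the same targets and 15.8% of the other genes, and AGTACTG, the letters for the seed of the most frequent name, in 16.0% and 11.4%. In coding sequence GTACTGT occurred in 3 of the 25 targets (12%) and 5.90% of the other genes. There AGTACTG occurred in 6 of the 25 targets (24%) and 11.0% of the other genes, and TACTGTA in 0% and 5.41%.

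The distance of each match from the end of the transcript was compared with the distance of the peak from the 3′ end of the gene, allowing 25 nt. Here GTACTGT and TACTGTA were searched. Of 29 genes with a shared peak of at least 3 reads in both libraries, 25 had a transcript, 19 had a match, and 12 had a match at the distance of the peak. With AGTACTG searched too, these numbers were again 19 and 12. In the 12 genes 13 matches lay at the distance of the peak, all in the 3′UTR. For each gene 1 of them is printed, with 30 bases each from GENCODE vM1 and the match in capitals. Only distances were compared, and the matches were not placed on the genome. The second match of Nsd1, TACTGTA, ended 24 nt from the end of the transcript.
Fos: aatagctatatccatGTACTGTAgtccttc
Dusp1: caattttgtgtttgcGTACTGTActatctt
Trim63: ctagagaggggcaatGTACTGTAcagtgcc
Rock2: cacataaaacacattGTACTGTAatactgc
Nsd1: agtccccataaacatGTACTGTAattcttt
Cav3: gctttgcgttcacatGTACTGTAatagcca
Sh2b3: aaatcttcgttttatGTACTGTAtgagtaa
Pik3c2b: cttaaagaggtctatGTACTGTAcccactt
Abcc5: gtgtagaagttttttGTACTGTAaagagac
Mbnl1: ttgattttcctgattGTACTGTAcatctat
Sub1: gagccatatcaaacctGTACTGTtgtagtt
Col8a1: aaaaatctatgccagaTACTGTAtattcta
Apart from Sub1 and Col8a1, the sites held the 8 letters GTACTGTA, which pair with bases 1 to 8 of miR-101a-3p. In Fos the match ended 273 nt from the end of the transcript, and the peak covered 205 to 310 nt from the end of the gene. In Dusp1 the match ended 202 nt from the end, within a peak covering 159 to 271 nt. Rock2, a kinase of the actin cytoskeleton, Cav3, the caveolin of muscle fibres, and Mbnl1, a splicing regulator, are among these genes. In the peaks of Sub1 (16.5% and 17.2%) and Col8a1 (3.85% and 7.09%) the family was a minor part of the reads, and other miRNAs led. Itgb1, Klf3, Aldoa, Myh4, Purb and Mylpf had no match to any of the 3 motifs in the chosen transcript, and Malat1, Rab1a, Rn18s-rs5 and Klhl41 had no transcript in the search.

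The share of peaks with a match at their distance was higher at the deeper family peaks. It was 18 of 25 peaks of at least 3 reads in control muscle (72%, 50.6 to 87.9) and 20 of 27 in mimic muscle (74.1%, 53.7 to 88.9), counting peaks whose distance lay within the 3′UTR. At 1 to under 3 reads it was 49.3% and 43.2%, and under 1 read 30.6% and 30.2%. Peaks with at least 3 reads of another miRNA and no family read had a match in 42 of 1537 cases in control muscle (2.73%, 1.98 to 3.68) and in 38 of 1641 in mimic muscle (2.32%, 1.64 to 3.16). With AGTACTG searched too, the latter shares were 3.12% and 2.93%, and those of the deep family peaks were again 72% and 74.1%. The median length of the peaks without a family read, 80 and 84 nt, was close to the 94 and 82 nt of the deep family peaks. It was 85 and 89 nt for family peaks of 1 to under 3 reads. Family peaks under 1 read were shorter, 56 and 61.5 nt, and so left a narrower window for a match.

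**Figure D3:**
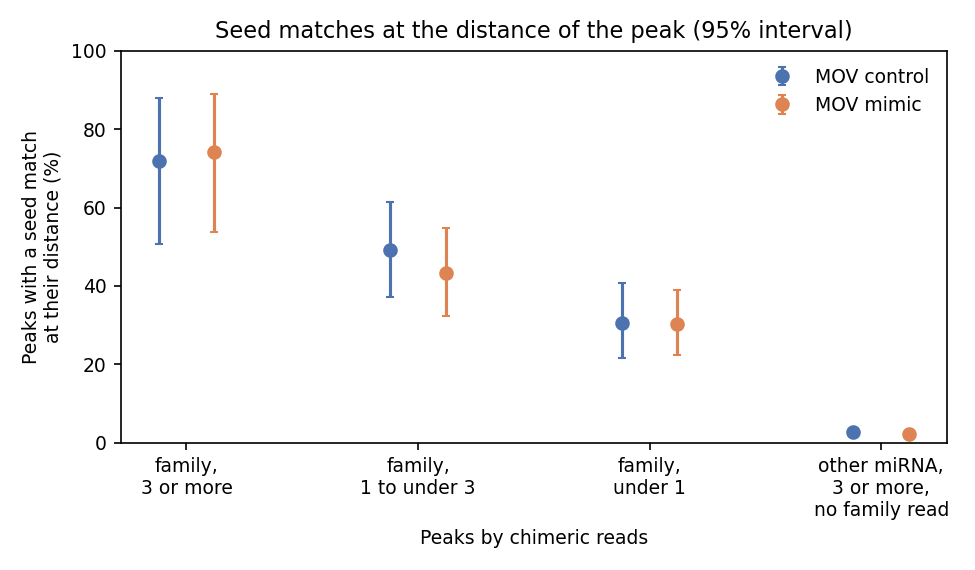
Percent of peaks with a miR-101 seed match at the distance of the peak from the 3′ end (y axis, linear from 0), for family peaks of 3 or more, 1 to under 3 and under 1 chimeric reads, and for peaks with 3 or more reads of another miRNA and no family read. Points are the MOV control (blue) and MOV mimic (orange) libraries and bars are 95% exact binomial intervals. The share is 72% and 74.1% at the deepest family peaks and 2.73% and 2.32% at the peaks without a family read.

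The family had target sites in 402 genes in control muscle and 475 in mimic muscle, and 161 genes were found in both, 40.0% of the former and 33.9% of the latter. With a peak of at least 3 reads the numbers were 41 and 49 genes, of which 29 were shared. In comparison, 6635 and 6918 genes held a peak of any miRNA. The share of genes found in both libraries was not computed for other miRNAs. By sites, 29.1% of the control family peaks and 35.6% of the control sites of other miRNAs were overlapped in mimic muscle, the latter under the same miRNA name.

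A list of 20 genes known as miR-101 targets from other systems held family peaks in 7 genes in control muscle and 6 in mimic muscle. Over all genes with a peak of any miRNA, 402 of 6635 and 475 of 6918 held a family peak. A list of 37 sarcomere genes, described below, held them in 13 and 19 genes, so such counts were not particular to reported targets. The reported targets carried 84.3 and 67.3 reads, 10.3% and 6.84% of the family reads, whereas the same genes held 0.438% and 0.380% of all chimeric reads. Fos and Dusp1 gave most of this. Of the 20 reported targets, 16 held a peak of any miRNA in each library, and 3 and 2 had a family peak of at least 3 reads. The list of reported targets was chosen with earlier results of these data known, so it is no independent support. Rac1, a GTPase of the actin cytoskeleton, had 7.69 reads in control muscle, 100% of the reads in its peak, and 0 in mimic muscle. Atxn1, a transcriptional regulator, had 1.46 and 2.18 reads. The amyloid precursor App had 2.05 and 0, the endothelial cadherin Cdh5 had 0 and 1.98, the GTPase Rap1b had 0.904 and 0.770, the DNA methyltransferase Dnmt3a had 0 and 1, and the TGF-β receptor Tgfbr1 had 0.345 and 0. Values near 1 read do not separate the libraries. Ezh2 held no family peak. Of 10 genes of the Polycomb repressive complex 2, 6 in control muscle and 8 in mimic muscle had a peak of any miRNA. The only family value was 0.00963 reads on Aebp2, an accessory subunit, in mimic muscle. For so few genes, 0 and 1 with a family peak are near the share over all genes. No lack of Polycomb targets can be read from them. Among 11 AP-1 and immediate early genes, Fosl2, with 1.42 and 1 reads, joined Fos.

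Sarcomere genes held a smaller part of the family reads than of all reads. The 37 genes had 5.43% of the family reads in control muscle and 7.69% in mimic muscle, against 20.4% and 23.3% of all chimeric reads. By genes the list was not lower. All 37 had a peak of any miRNA, and 13 in control muscle and 19 in mimic muscle had a family peak. Over all genes with a peak of any miRNA, 402 of 6635 and 475 of 6918 had a family peak. Beside Ttn, the myosin light chain Mylpf had 7.18 and 10.6 family reads, and Myh4, the heavy chain of the fastest fibres, had 10.0 and 4.73. All 8 markers of muscle fibres had reads, and their part of all reads was 16.4% in control muscle and 19.2% in mimic muscle, summed over all miRNAs. The part of this in the family values was not tested. Integrin and adhesion genes were the opposite case by reads, with 3.21% and 3.95% of the family reads and 0.300% and 0.251% of all reads. All 15 of these genes had a peak of any miRNA, and 3 and 6 had a family peak, also above the share over all genes. Most of the family reads of this list were on Itgb1, 23.7 of 26.3 in control muscle and 31.9 of 38.8 in mimic muscle. Dmd, which encodes dystrophin, had 0 and 3.63 reads, and the actin crosslinker Flna 1.79 and 1.

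Extracellular matrix genes had family peaks in 9 and 6 of 21 genes, with 3.41% and 2.20% of the family reads and 4.12% and 3.43% of all reads. Col1a2 led, and Col1a1, the partner chain, had 1.99 and 1.66 reads, and the matrix protein Postn 1.48 and 1.57. The 5 fibroblast markers held 1.80% and 1.59% of all reads, and the adipocyte markers Adipoq and Plin1 were at 0. Chimeric reads depend both on how much target RNA a muscle holds and on how often Ago2 binds it, and these cannot be told apart here, nor can fewer cells of a type and less RNA per cell. Of 17 genes of glycolysis and energy supply, 5 had a family peak in each library. Over all genes with a peak of any miRNA, 402 of 6635 had one in control muscle and 475 of 6918 in mimic muscle. The glycolysis and energy list held 1.63% and 1.24% of the family reads against 2.58% and 2.49% of all reads. The aldolase Aldoa had 8.02 and 8.76 reads, the phosphofructokinase Pfkm 3 and 0, and the creatine kinase Ckm 1 in each. Of 12 calcium handling genes, 3 and 2 had a family peak. They held 0.838% and 0.437% of the family reads, and the list held 1.18% and 1.24% of all reads. The calcium pump Atp2a1 had 2.93 and 2.41 reads, calsequestrin Casq1 3.05 and 0, and the release channel Ryr1 0.895 and 1.89. Of the translation genes, the initiation factor Eif4g2 had 2.03 and 2.75 reads and the elongation factor Eef1a1 0.681 and 0. The chaperones Cryab, with 0 and 1 read, and Hspa5, with 1 and 0, and the miRNA machinery genes Tnrc6b, with 0.891 and 0, Ago3, with 0 and 0.559, and Dicer1, with 0 and 0.5, were at most at 1 read. Of 10 noncoding RNAs, Malat1 and the imprinted RNA H19, with 0.284 and 5.95 reads, had family peaks.

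The next question was whether the family's reads differed between the control and mimic muscles. Family reads were 821 in control muscle and 983 in mimic muscle, a ratio of 1.198 (95% conditional binomial interval 1.09 to 1.32). The libraries themselves differed in depth by 1.12, and after division by total reads the family ratio was 1.07. The ratio was 1.18 (1.07 to 1.31) for miR-101c and 1.35 (0.991 to 1.85) for miR-101b-3p. Over 146 other miRNAs with at least 50 sites in each library the median ratio was 1.05, with the 5th to 95th percentile from 0.763 to 1.47, and 29 of them lay above the family. Of 148 miRNAs including miR-101b-3p and miR-101c, 31.8% had an interval that did not include the ratio of all reads, and both family members included it.

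How far the libraries held the same sites depended on the depth of the site. Of the 546 control peaks, 159 were overlapped by a family peak of the mimic (29.1%, 25.3 to 33.1). The share was 20.2% under 1 read, 30.9% from 1 to under 3 reads and 82.9% from 3 to under 10 reads, and all 10 peaks of at least 10 reads were found again. For the sites of other miRNAs the shares at these depths were 23.3%, 39.0%, 80.4% and 97.1%. Sites of other miRNAs had to overlap under the same miRNA name, whereas family peaks were summed over the names. With the same member name required, the family share over all depths was 27.5%. This unlike rule also holds for the shared peaks and the peaks of 1 library below.

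Over 149 shared family peaks the log2 ratio of mimic over control reads had a median of 0.01 (−0.12 to 0.19), compared with 0.04 for other miRNAs and 0.16 for all reads. For the 32 shared peaks with at least 3 reads in both libraries it was 0.02 (−0.25 to 0.39) with an SD of 0.60 between peaks, against 0.12 for other miRNAs, and 17 of 32 were higher in mimic muscle. At least 2-fold higher reads in mimic muscle were seen at 2 of the 32 peaks, where 10.2% of such shared peaks of all miRNAs were that much higher. Another 2 were at least 2-fold lower, against 5.58% of all. In either direction 15.8% of all such peaks passed this fold. The family counts were thus no larger than a share near this background would give.

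The named peaks had few reads. Pik3c2b, a lipid kinase, had 3.91 reads in control muscle and 12 in mimic muscle, 3.07-fold higher (0.909 to 12.8). Abcc5, an organic anion transporter, had 3.61 and 7.24 reads, and a peak of Rn18s-rs5 had 7.57 and 14.5. In the other direction, a different peak of Rn18s-rs5 had 8.56 and 4.1 reads, a peak of Myh4 had 7.70 and 3.58, and another Rn18s-rs5 peak had 10.5 and 6.42. Each of these intervals includes 1. In mimic muscle the stretch of the Rn18s-rs5 peak of 8.56 reads also held a peak of 5.18 family reads, chr17:39846468-39846503, which was not paired with it. The Myh4 peak spanned 92 nt in control muscle and 50 nt in mimic muscle, with 686 and 345 reads of all miRNAs. The family held 1.12% and 1.04% of these reads.

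**Figure D4:**
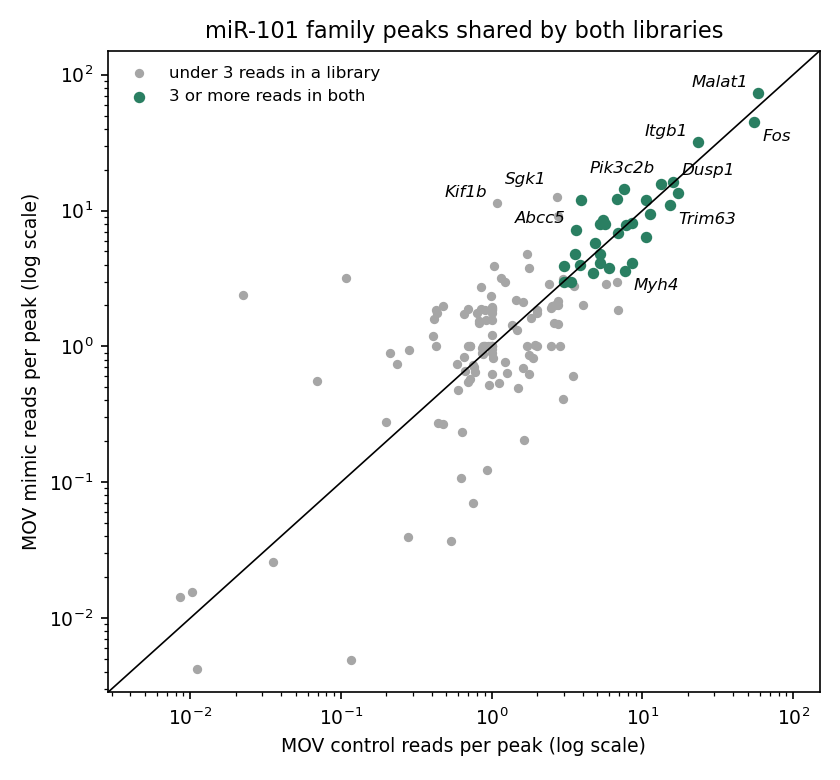
miR-101 family chimeric reads in the MOV control (x axis, log scale) and MOV mimic (y axis, log scale) for the 149 peaks found in both libraries. Each point is a peak, the 32 peaks with 3 or more reads in both are green, and the line marks equal reads. The green peaks lie along the line with a median log2 ratio of 0.02, and Kif1b and Sgk1 lie above it among the grey ones.

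The intervals of the fold were also set against the ratio of all reads, for the 49 shared family peaks with at least 3 reads in either library. The interval lay above it at 2 peaks, where 3.39% of such peaks of all miRNAs did, and below it at 0, where 3.41% did. These 2 peaks were named after their values were seen. Kif1b, a kinesin motor of organelle transport, had 1.09 reads in control muscle and 11.4 in mimic muscle (10.4-fold, 1.60 to 473). Sgk1, a serum and glucocorticoid inducible kinase, had 2.71 and 12.6 reads (4.66-fold, 1.19 to 23.7). The reads of all miRNAs in these peaks were 4.31 and 18.3 at Kif1b and 3.19 and 21.8 at Sgk1. The family held 25.3% and 62.2% of them at Kif1b and 84.9% and 57.9% at Sgk1. The paired peaks differed in width. Sgk1 had chr10:21999784-21999795 in control muscle and chr10:21999739-21999804 in mimic muscle. Kif1b had chr4:149233878-149233925 and chr4:149233818-149233913, which overlap only in part.

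Some peaks of at least 3 reads were found in 1 library, 6 of 45 in control muscle and 11 of 54 in mimic muscle. Of the sites of all miRNAs at this depth, 15.7% of the control and 17.3% of the mimic were not overlapped in the other library. Beside Rac1, the control peaks had at most 3.87 reads. The strongest of the mimic were Emp1, a membrane protein, with 13.4 reads, Psme4, a proteasome activator, with 8.27, and Leprot, a protein of receptor traffic, with 7.59. The Emp1 peak, chr6:135383040-135383086, was the 1 peak of at least 10 reads in mimic muscle with no family peak of the control overlapping it.

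Finally, the miRNAs whose reads per peak followed those of the family were listed, by the mean over both libraries of Pearson's r of log2(reads + 1) across all peaks. They were miR-144-3p (r = 0.242), miR-139-5p (0.197), miR-140-3p (0.151), miR-128-3p (0.150) and miR-126a-5p (0.147), and the median of 146 miRNAs was 0.102. These correlations are weak, the peaks share libraries and depth, and they are a description only. In the sequences printed above, the first 8 bases of miR-144-3p share the run UACAGUA with those of miR-101a-3p, and those of miR-139-5p share 6 bases in a row. Over 119 of the miRNAs with a sequence in the reference the median of this shared run was 3 bases, and 1 had 7 or more. At the Igfbp5 peak miR-144-3p was the leading other miRNA in both libraries, with 2 reads in control muscle and 2.45 in mimic muscle.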

How the data were processed

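Chimeric Ago2 eCLIP-seq of mouse plantaris was analysed in 2 of 4 libraries, without the inputs. The authors deposited estimated counts, that is the chimeric reads of 1 miRNA in 1 peak, unscaled to depth. The control library summed to 232408 reads and the mimic library to 259207. The submitters' processing notes name UMI-tools 1.1.1, cutadapt 3.2, STAR 2.7.7a, Bowtie 1.2.3, HOMER 4.11 and the build mm10. The methods name mm9 and CLIPper, and an amplification with a miR-1 primer, so that shares of miRNAs are those of these libraries and not of the tissue. The origin of the fractional values was not stated.

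Family reads were summed per peak. Genes came from same-strand overlap with 49997 RefSeq genes of GRCm38.p6, whose strand was taken from RefSeq for 28097 and by name from GENCODE for 8349. The largest overlap was used, and 99.0% of peaks had a gene. Peaks of both libraries were shared if they overlapped by at least 1 nt on the same strand and were each other's largest overlap. Seed matches used GENCODE vM1 transcripts by gene name, since GRCm38 exons were not used here, and the ends of both annotations can differ.

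The members, gene lists and tests were chosen with earlier results of these data known. Genes named were the 10 with the most family reads outside mitochondrial RNA and Rn18s-rs5, those of the 5 strongest peaks per library, the 3 largest rises and falls among shared peaks of at least 3 reads, all reported targets and Polycomb genes with a family peak, and 3 per other list. Further genes were named outside this rule, for the outcome of the seed search. Kif1b, Sgk1 and the strongest peaks found in 1 library were also named outside it, after their values were seen. Intervals are 95%, exact, on rounded reads and cover counting error only. PCR duplicates had been removed by the authors through molecular identifiers. Alternatives were minimum reads, loci left out, depth, overlap, name and gene assignment. The scripts were tested on simulated data and run with Python 3.11.15, NumPy 2.4.6, SciPy 1.17.1, pandas 2.3.3 and Matplotlib 3.10.9.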

Additional observations from a re-analysis of the deposited data

How the results depend on the processing

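With 1 library per group the variation between animals and preparations is not known, and most family peaks held under 1 read. No paired analysis was possible because the groups compared hold 1 library each. Of 58 alternative values, 33 stayed within the interval or limit of the reported value and 25 moved beyond it. A reversal could be called only for the ratio of family reads, where 0 occurred. As a share of reads the family held 0.353% in the control and 0.379% in the mimic. With sites of at least 3 reads alone its share of sites was 0.434% and 0.461%, the overlap from the control 68.2%, the target genes 40, 44 and 27 (control, mimic and both), and the part of miR-101c 95.8% and 95.2%. With sites of at least 1 read these were 0.543% and 0.610%, 34.0%, and 196, 216 and 81 genes, and miR-101c held 93.2% in the control. Genes with at least 2 family peaks numbered 73, 90 and 28. Division by library totals gave a read ratio of 1.07 and a median log2 ratio of −0.15, and miR-101b-3p alone gave a read ratio of 1.35. The median log2 ratio thus changed sign from 0.01, whose interval of −0.12 to 0.19 spans 0. The overlap was 24.0% with 50% reciprocal overlap and 24.1% counted from the mimic. Fewer sites enter under a minimum, and the cause of the other shifts was not tested. In alternatives chosen after seeing the data, seed matches at the distance of peaks of at least 3 reads were at 72% and 74.1% with no distance allowed beyond the peak or with all 3 motifs, and at 64.0% and 66.7% with GTACTGT alone.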
